A study of Homo sapiens with 4 samples.

Results

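The genes described here are the 54 genes of replication licensing, the replicative helicase and the replisome. They were chosen by name from the published machinery of DNA replication, with earlier results of these data known. They were found as 54 of the 56304 gene rows of the count table. All 54 were expressed well enough to be tested, and no count of any of them in any library was below 125. They were measured by bulk RNAseq in MV3, an established and highly metastatic human melanoma line that stably carries an H2B-GFP label on its chromatin. Spheroids of 50000 cells were embedded in collagen I and dissected on day 2 into the core, punched out at 1 mm, and the invasion zone around it, taken with a 3 mm punch (2 libraries per zone). The labels give no treatment for either zone, and the sources do not say how many spheroids went into a library. Because the dissection was vertical, the authors name invading cells above and below the core as a possible admixture of the core sample.

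Replication is prepared in G1, when the origin recognition complex (ORC) binds DNA and recruits CDC6 and CDT1, which load the MCM helicase ring as an inactive double hexamer. In S phase the kinases CDC7-DBF4 and CDK fire the origins: CDC45 and the GINS complex join the ring to make the active CMG helicase, and polymerases, the PCNA clamp and its RFC loader follow the fork. Geminin (GMNN) and the ubiquitin ligase receptor DTL keep CDT1 from licensing the same origin again. Many of these genes are textbook targets of the E2F transcription factors and are abundant in dividing cells and low in resting cells. In bulk RNA a larger share of cycling cells and more RNA per cell cannot be told apart.

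Averaged over the libraries, nearly all of these genes had a higher level in the invasion zone. Of the 54 genes, 53 had a log2 fold change (invasion zone against core) above 0, against 49.4% of the 15529 genes tested, and ORC4 was the exception. The 2 zones did not overlap, with the invasion zone higher, in 49 genes (28.1% of all genes tested), and with the invasion zone lower in 0 (30.3% of all genes tested). A 2-fold higher mean was reached by 27 (4.63% of all genes tested) and a 2-fold lower mean by 0 (8.49%), with no test. Over the 54 genes the log2 fold change had a median of 1.00, and over all genes tested of -0.01. Their summed share of each library was 0.222% and 0.319% in the core (replicates 1 and 2) and 0.437% and 0.532% in the invasion zone.

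Without a replicate term, the quasi-likelihood test of edgeR with Benjamini-Hochberg adjustment over all genes called 0 of the 54 genes (adjusted p from 0.112 to 0.907), and 0 of all genes in either direction (0% called). At an unadjusted p under 0.05 and at least a 2-fold change, 26 of the 54 were higher (3.19% of all genes tested) and 0 lower (6.41%). DESeq2 without a replicate term called 26 of the 54 higher at an adjusted p under 0.05 and at least 2-fold (2.28% of all genes tested) and 0 lower (3.53%). When edgeR was given the replicate number as a block, 30 of the 54 were called higher, against 3.79% of all genes tested, and 0 were called lower, against 7.39%. At any fold 51 of the 54 passed the adjusted threshold upward, against 20.0% of all genes tested, and 21 of these stayed under 2-fold. ORC3, ORC4 and RFC1 did not pass it. The block leaves 1 residual degree of freedom. Its p-values rest on how closely the differences within replicates 1 and 2 agree, with information shared over genes. Nothing in the sources states that libraries of one number come from the same spheroid or culture. The p-values of either fit therefore describe these 4 libraries, whose spread may be technical.

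**Figure D1:**
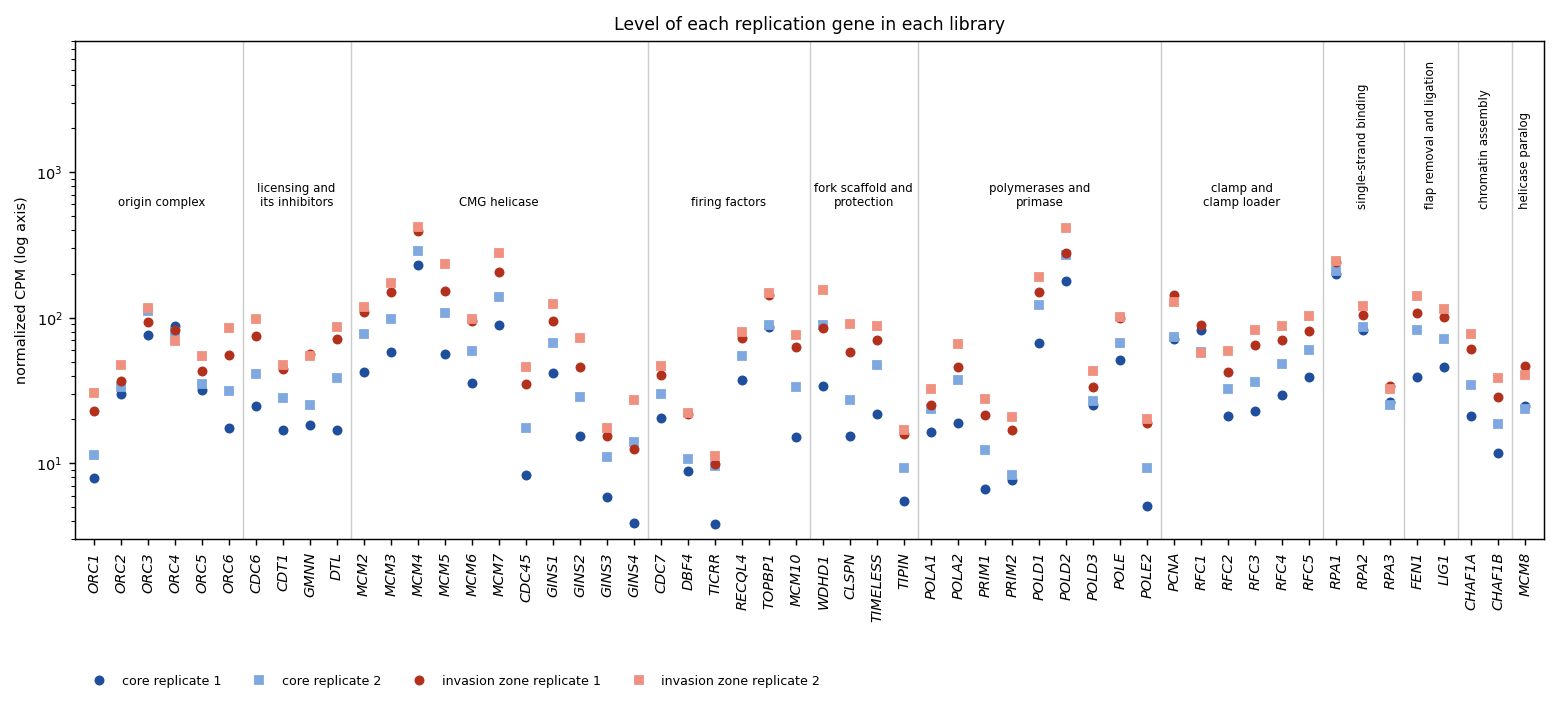
Level of each of the 54 genes, in normalized CPM on a log axis, in each of the 4 libraries, ordered by step of replication. Circles and squares are replicates 1 and 2, blue is the core and red the invasion zone, and for 49 genes both red symbols lie above both blue ones.

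Core replicate 1 stood at the bottom for most of these genes. It was the lowest of the 4 libraries for 50 of the 54, and invasion zone replicate 2 was the highest for 48. In 45 genes the libraries followed 1 order, with core replicate 1 below core replicate 2, then invasion zone replicate 1 and invasion zone replicate 2. Core replicate 2 exceeded core replicate 1 by a median of 0.68 on the log2 scale over the 54 genes, whereas the median over all genes tested was 0. Between the invasion zone libraries the same median was 0.32 over the 54 genes and -0.03 over all genes tested. As planned, the zone difference was also read within each replicate. The median log2 ratio of invasion zone to core was 1.27 in replicate 1 and 0.81 in replicate 2. Both ratios were above 0 for 52 of the 54 genes, against 6122 of the 15529 genes tested. Both reached 2-fold for 18 of the 54. That 2-fold count and the order of the libraries were not tallied over all genes. The count of calls without a replicate term changed with single libraries, and so did the count over all genes tested. These fits take the spread from the zone that still has 2 libraries. In them the median log2 fold change of the 54 genes ranged from 0.69 (without core replicate 1) to 1.45 (without core replicate 2).

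**Figure D2:**
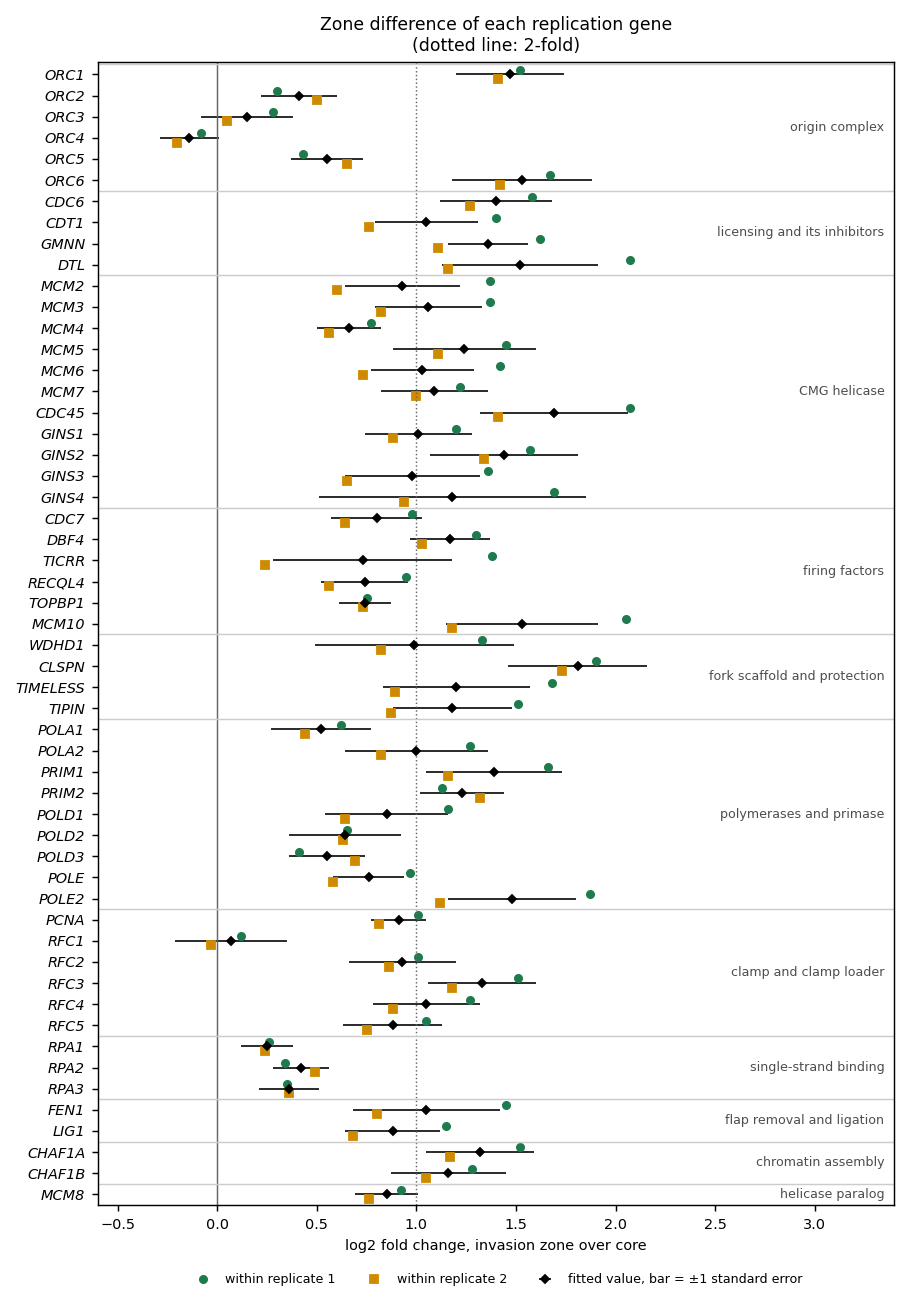
Log2 fold change (invasion zone against core) of each gene, by step. Diamonds are the fitted value without a replicate term with ±1 standard error, circles and squares are the ratios within replicates 1 and 2, and RFC1, ORC4, ORC3, ORC2 and the 3 RPA genes lie nearest to 0.

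The promoters of these genes share short sequence words that the choice of genes did not use. The RefSeq table (GRCh38.p14) holds 300 bases around the gene start, 250 before and 50 after, for 47 of the 54 genes, and MCM4, MCM5, GINS4, RECQL4, POLD3, RPA2 and RPA3 had no entry. The E2F word was first searched in an 8-letter form (TTTCCCGC, TTTCGCGC, TTTGCCGC and TTTGGCGC) and, after that result had been seen, in a 7-letter form that drops the first T, each on both strands, where a word on one strand may overlap one on the other. The 7-letter form is the one shown. At least 1 match was found in 33 of the 47 promoters (70.2%), against 20.6% of 10050 promoters of tested genes and 13.1% of all 27305 in the table. The 8-letter words were found in 44.7% of the 47 and 5.3% of the promoters of tested genes. The median GC content of the promoters was 64.7% in the 47 genes and 65.0% in the genes tested. CCAAT, the letters of the CCAAT box, lay in 57.4% of the 47 and 36.4% of the promoters of tested genes, and TTTGAA, the letters of the CHR element of mitotic genes, in 2.13% and 9.89%. The E2F word was present in 20 of 28 promoters of genes called with the replicate block (71.4%) and in 13 of 19 of the others (68.4%), and the difference was not tested. Stretches before the gene start are printed for 5 genes, cut to bases that no annotated exon covers, with the E2F words in capitals. ORC1 (chr1:52404424-52404601, minus strand), CDT1 (chr16:88803539-88803788, plus strand), MCM6 (chr2:135876444-135876693, minus strand) and PCNA (chr20:5126627-5126872, minus strand) show the word in the origin complex, licensing, the helicase and the clamp, and ORC2 (chr2:200963681-200963910, minus strand), has no match in the window. These examples do not stand for a relation with the zone difference: ORC3 (log2 fold change 0.15) and RFC1 (0.07) hold the word, and ORC6 (1.53), CDC45 (1.69), MCM10 (1.53) and GMNN (1.36) do not.
ORC1: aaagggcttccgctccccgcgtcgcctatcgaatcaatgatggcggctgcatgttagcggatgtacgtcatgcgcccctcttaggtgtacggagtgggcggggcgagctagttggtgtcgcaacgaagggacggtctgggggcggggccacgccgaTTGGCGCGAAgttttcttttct
CDT1: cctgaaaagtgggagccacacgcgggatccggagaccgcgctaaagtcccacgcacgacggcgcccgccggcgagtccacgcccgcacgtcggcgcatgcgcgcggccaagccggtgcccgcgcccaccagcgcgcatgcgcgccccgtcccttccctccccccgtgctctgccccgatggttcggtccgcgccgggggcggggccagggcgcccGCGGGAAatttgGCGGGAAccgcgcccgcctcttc
MCM6: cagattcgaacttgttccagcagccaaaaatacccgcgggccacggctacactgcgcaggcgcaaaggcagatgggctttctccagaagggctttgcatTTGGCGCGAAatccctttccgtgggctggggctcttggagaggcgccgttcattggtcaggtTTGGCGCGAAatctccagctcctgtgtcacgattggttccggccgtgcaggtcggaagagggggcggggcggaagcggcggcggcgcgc
PCNA: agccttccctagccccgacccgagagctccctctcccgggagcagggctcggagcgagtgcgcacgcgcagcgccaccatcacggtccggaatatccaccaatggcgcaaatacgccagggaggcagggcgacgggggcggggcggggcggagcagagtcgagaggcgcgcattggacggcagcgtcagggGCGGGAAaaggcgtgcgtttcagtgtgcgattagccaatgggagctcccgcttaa
ORC2: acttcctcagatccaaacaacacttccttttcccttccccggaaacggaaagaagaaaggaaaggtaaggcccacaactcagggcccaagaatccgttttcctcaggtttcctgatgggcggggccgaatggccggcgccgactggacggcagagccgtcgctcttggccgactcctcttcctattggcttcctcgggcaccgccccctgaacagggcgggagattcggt
In ORC1 and MCM6 a word on each strand overlapped to give TTGGCGCGAA, which lay at 22 to 13 bases before the start of ORC1 and occurred 2 times in the stretch of MCM6. A match is a run of letters and no measure of binding.

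The origin complex split into subunits with a large and subunits with a small zone difference. ORC1, the subunit whose protein is made anew in each cell cycle, had 7.91 and 11.4 CPM (counts scaled to a common library total) in the core libraries (replicates 1 and 2 throughout) and 22.7 and 30.3 CPM in the invasion zone libraries. ORC6, the smallest subunit, had 17.4 and 31.5 CPM in the core and 55.4 and 84.5 CPM in the invasion zone. The zones did not overlap for either gene, and in both the lowest library was core replicate 1 and the highest invasion zone replicate 2. The log2 fold change was 1.47 (standard error 0.27) for ORC1 and 1.53 (standard error 0.35) for ORC6, at adjusted p = 0.112 and 0.115 in edgeR without the block and 0.000214 and 0.000101 with it. ORC4, an ATPase subunit of the core ring, had 87.5 and 79.9 CPM in the core and 82.6 and 69.7 CPM in the invasion zone, so that the zones overlapped and invasion zone replicate 2 was the lowest. Its log2 fold change was -0.14 (standard error 0.15, adjusted p = 0.621 without and 0.236 with the block). ORC3 overlapped as well (76.5 and 112 CPM against 92.7 and 116 CPM), with a log2 fold change of 0.15 that turned to -0.12 without core replicate 1 and to -0.02 without invasion zone replicate 2. ORC2 (0.41) and ORC5 (0.55) were higher in both invasion zone libraries than in both core libraries and passed the adjusted threshold of edgeR with the block (adjusted p = 0.0209 and 0.00504) but not without it (0.247 and 0.153), under 2-fold. Over ORC2 to ORC5 the median log2 fold change was 0.28, and over ORC1 and ORC6 it was 1.50. These 2 groups follow the size of the fold change, so that their medians had to differ, and the difference was not tested.

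**Figure D3:**
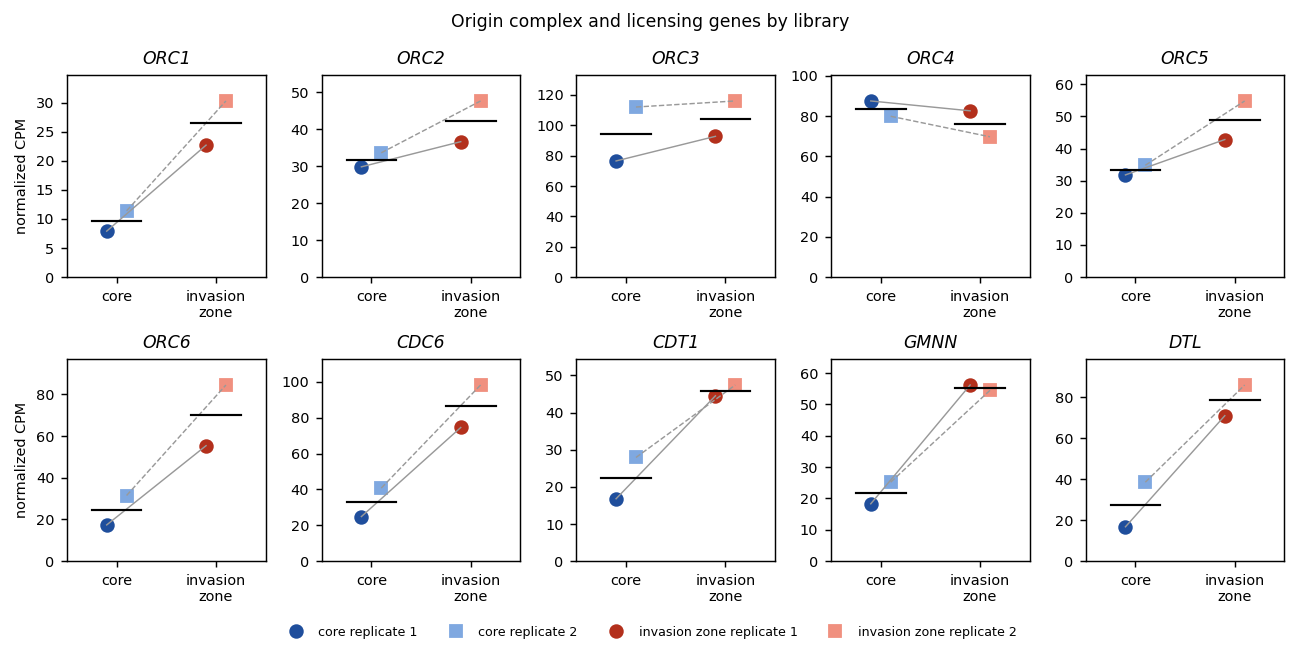
Normalized CPM of the 6 origin complex genes and the 4 genes of licensing and its inhibitors in each library, each panel on its own axis from 0. Black bars are zone means (n = 2), lines join libraries of the same number, and the lines rise steeply for ORC1, ORC6 and the licensing genes and are nearly flat for ORC3 and ORC4.

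The 4 genes of licensing and its inhibitors all reached 2-fold and were called with the block. CDC6, the ATPase that completes the loading site on ORC, had 24.9 and 40.8 CPM in the core and 74.6 and 98.3 CPM in the invasion zone. CDT1, which brings the MCM ring to the origin, had 16.8 and 27.9 CPM against 44.5 and 47.4 CPM. Its inhibitor geminin (GMNN) had 18.3 and 25.2 CPM against 56.2 and 54.5 CPM. For all 3 genes both invasion zone libraries stood clear of both core libraries. DTL, the receptor through which CDT1 is marked for destruction in S phase, had 16.8 and 38.6 CPM in the core, where the libraries lay far apart, and 71.1 and 86.1 CPM in the invasion zone. The log2 fold changes were 1.40 (CDC6, standard error 0.28), 1.05 (CDT1, 0.26), 1.36 (GMNN, 0.20) and 1.52 (DTL, 0.39). In edgeR their adjusted p lay between 0.112 and 0.121 without the block and between 0.000117 and 0.00099 with it. CDT1 dropped under 2-fold within replicate 2, with a log2 ratio of 0.76, and had 1.40 within replicate 1.

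All 11 genes of the CMG helicase were higher on average in the invasion zone, with log2 fold changes from 0.66 to 1.69 and a median of 1.06. With the block 9 of the 11 were called. The median log2 ratio was 1.37 within replicate 1 and 0.88 within replicate 2, and all 11 ratios were smaller in replicate 2. The MCM ring is built from 1 copy each of MCM2 to MCM7, and its genes had a median log2 fold change of 1.05. MCM5 had 55.9 and 108 CPM in the core and 153 and 233 CPM in the invasion zone. MCM7 had 88.9 and 139 CPM against 207 and 279 CPM, and MCM3 had 58.0 and 98.0 CPM against 150 and 173 CPM. In each of these, core replicate 1 was the lowest library and invasion zone replicate 2 the highest. MCM6 had 35.6 and 59.2 CPM against 95.3 and 97.9 CPM, and MCM2 had 42.5 and 77.7 CPM against 110 and 118 CPM. MCM4 had 230 and 286 CPM in the core and 394 and 421 CPM in the invasion zone, the smallest zone difference of the ring. Their log2 fold changes were 1.24 (MCM5, standard error 0.36), 1.09 (MCM7, 0.27), 1.06 (MCM3, 0.27), 1.03 (MCM6, 0.26), 0.93 (MCM2, 0.29) and 0.66 (MCM4, 0.16). With the block MCM3, MCM5, MCM6 and MCM7 were called (edgeR, adjusted p from 0.000117 to 0.000916), while MCM2 (adjusted p = 0.00176) lay just under 2-fold and MCM4 (0.000501) further below it. Per kilobase of the canonical transcript, the ring genes ranged in the core from 12.6 CPM (MCM6) to 63.5 CPM (MCM4). In the invasion zone they ranged from 25.7 CPM (MCM6) to 100 CPM (MCM4). These values depend on the length used. In GENCODE the exons cover 9852 bases for MCM4 and 4135 for MCM6, against canonical lengths of 4062 and 3753. Whether the transcripts of these subunits differ in number was therefore not measured.

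CDC45 and the 4 GINS genes encode the partners that turn the ring into the active helicase. CDC45 had 8.36 and 17.4 CPM in the core and 35.1 and 46.1 CPM in the invasion zone, so that the zones were well separated. Its log2 fold change of 1.69 (standard error 0.37) was the largest of the helicase, with adjusted p = 0.113 without the block and 0.000225 with it. GINS2 had 15.4 and 28.6 CPM against 45.9 and 72.3 CPM, a log2 fold change of 1.44 (standard error 0.37, adjusted p = 0.12 without and 0.000117 with the block). GINS1 (1.01) and GINS3 (0.98) were smaller. GINS4 had 3.88 and 14.1 CPM in the core and 12.6 and 27.1 CPM in the invasion zone, so that core replicate 2 exceeded invasion zone replicate 1. Its log2 fold change of 1.18 had the largest standard error of the 54 genes, 0.67, at adjusted p = 0.324 in edgeR without the block and 0.0015 with it. GINS1 to GINS4 were all called with the block, where GINS3 had a log2 fold change of 1.05. MCM8, a relative of the ring that works in recombination repair, had 24.7 and 23.7 CPM against 46.9 and 40.3 CPM, a log2 fold change of 0.85 (standard error 0.16).

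Among the firing factors, 2 of the 6 genes were called with the block and the other 4 passed its adjusted threshold under 2-fold. MCM10, which helps to activate the loaded helicase, had 15.1 and 33.5 CPM in the core and 62.8 and 75.9 CPM in the invasion zone. DBF4, the regulatory subunit of the CDC7 kinase, had 8.86 and 10.7 CPM against 21.9 and 22 CPM, and CDC7 itself had 20.6 and 30.0 CPM against 40.6 and 46.8 CPM. All 3 were separated by zone, and the invasion zone libraries of DBF4 were nearly equal. The log2 fold changes were 1.53 (MCM10, standard error 0.38), 1.17 (DBF4, 0.20) and 0.80 (CDC7, 0.23). TICRR, which helps CDC45 to join the ring, had 3.80 and 9.55 CPM in the core and 9.95 and 11.3 CPM in the invasion zone, and its zones came close to overlapping. Its ratio depended on the replicate, at 1.38 within replicate 1 and 0.24 within replicate 2 on the log2 scale, and the fitted value of 0.73 (standard error 0.45) gave adjusted p = 0.362 without and 0.033 with the block. TOPBP1, a scaffold of origin firing and checkpoint signalling, was the most even gene of this step, with 86.1 and 88.5 CPM against 144 and 147 CPM and a log2 fold change of 0.74 (standard error 0.13). RECQL4 had the same value, 0.74 (standard error 0.22).

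The proteins that hold and protect the fork included the largest zone difference of all 54 genes. CLSPN encodes claspin, which links the fork to the checkpoint kinase CHK1 and travels with TIMELESS and TIPIN. It had 15.5 and 27.3 CPM in the core and 58.0 and 90.8 CPM in the invasion zone, for 1.81 on the log2 scale (standard error 0.35), with adjusted p = 0.112 without the block and 7.52e-05 with it. The difference was of similar size within replicate 1 (1.90) and replicate 2 (1.73). In edgeR with the low-count filter and no replicate term, CLSPN was not called with all 4 libraries. DESeq2 without a replicate term called it, and so did edgeR without that filter. With each library left out, the log2 fold change of CLSPN ranged from 1.43 to 2.26. The gene lies on chromosome 1 of GRCh38 at 35720218 to 35769978. TIMELESS (1.2) and TIPIN (1.18) were higher in both invasion zone libraries. WDHD1, which ties polymerase alpha to the helicase, had 33.9 and 88.7 CPM in the core and 85.6 and 156 CPM in the invasion zone, so that core replicate 2 and invasion zone replicate 1 were nearly equal and the zones overlapped. Its log2 fold change was 0.99 (standard error 0.50) without the block and 1.08 with it, at adjusted p = 0.284 and 0.0004 in edgeR. All 4 genes of this group were called with the block.

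Of the polymerases and primase, all 9 genes lay higher in both invasion zone libraries, with log2 fold changes from 0.52 to 1.48, and 4 were called with the block. POLE2, the second subunit of the leading-strand polymerase epsilon, had 5.11 and 9.22 CPM in the core and 18.8 and 20.1 CPM in the invasion zone, for 1.48 on the log2 scale (standard error 0.32). The other 3 were PRIM1 (1.39) and PRIM2 (1.23), the catalytic and the large subunit of primase, and POLA2 (1.00), the second subunit of polymerase alpha. In GENCODE 2012 of the 12006 exonic bases of POLA2 are shared with another gene on its strand, which leaves its count less certain. POLA1, the catalytic subunit of polymerase alpha, had 16.3 and 23.7 CPM against 25.2 and 32.2 CPM, with zones that nearly touched and the smallest difference of the group, 0.52 (standard error 0.25). The other catalytic subunits, POLE (0.76) and POLD1 (0.85), and the delta subunits POLD2 (0.64) and POLD3 (0.55) also stayed under 2-fold and passed the adjusted threshold with the block (edgeR, adjusted p at most 0.00911 over the 9 genes).

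Of the 6 genes of the clamp and its loader, 5 were higher in both invasion zone libraries than in both core libraries, and RFC1 was the exception. PCNA, the sliding clamp, had 71.8 and 73.3 CPM in the core and 144 and 128 CPM in the invasion zone, and its core libraries were nearly equal, unlike those of most of the other genes. Its log2 fold change was 0.91 (standard error 0.14, adjusted p = 0.112 without and 0.000225 with the block). RFC3, a small subunit of the loader, had 22.7 and 36.2 CPM against 64.8 and 82.3 CPM, a log2 fold change of 1.33 (standard error 0.27). The small subunits RFC2 to RFC5, which also serve in other clamp loaders, had a median of 0.99. RFC1, the large subunit that is particular to the PCNA loader, had 82.5 and 58.2 CPM in the core and 89.7 and 57.2 CPM in the invasion zone. The RFC1 libraries went with the replicate and not with the zone, and its log2 fold change of 0.07 (standard error 0.28) turned to -0.16 without core replicate 2 and to -0.30 without invasion zone replicate 1. It was not called with the block either (adjusted p = 0.67).

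The genes of the single-strand binding protein RPA had the smallest median of any step, 0.36 on the log2 scale. RPA1, the large subunit, had 200 and 208 CPM in the core and 240 and 246 CPM in the invasion zone, for 0.25 on the log2 scale (standard error 0.13). RPA2 had 82.7 and 86.3 CPM against 105 and 121 CPM, a log2 fold change of 0.42 (standard error 0.14). All 3 genes were separated by zone with closely matched replicates, and 0 of 3 reached 2-fold (edgeR with the block, adjusted p from 0.00527 to 0.0329). RPA serves repair and recombination as well as replication.

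Okazaki fragment maturation and chromatin assembly act behind the fork. FEN1, the flap nuclease, had 39.1 and 81.9 CPM in the core and 107 and 142 CPM in the invasion zone, for 1.05 on the log2 scale (standard error 0.37). LIG1, the ligase that joins the fragments, had 45.5 and 71.3 CPM against 101 and 114 CPM, a log2 fold change of 0.88 (standard error 0.24). CHAF1A, the large subunit of the histone chaperone CAF-1, had 21.2 and 34.3 CPM against 61.0 and 77.0 CPM (1.32, standard error 0.27), and CHAF1B had 11.7 and 18.6 CPM against 28.4 and 38.6 CPM (1.16, standard error 0.29). All 4 genes were separated by zone, and FEN1, CHAF1A and CHAF1B were called with the block, where the adjusted p of the 4 lay between 0.000156 and 0.000639.

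Other lists place these values. Among 40 further genes of nuclear replication, 16 were called higher and 0 lower with the block (0 without it), against 3.79% higher over all genes tested, and the median log2 fold change was 0.84. At any fold and in either direction 32 of the 40 passed the blocked adjusted threshold, against 6222 of the 15529 genes tested. Of these, 15 passed upward under 2-fold and 1, POLD4, downward. TRAIP, a ubiquitin ligase that marks the helicase for unloading, had 5.23 and 6.96 CPM in the core and 15.3 and 19.4 CPM in the invasion zone (1.52), and DSCC1, of the alternative clamp loader, had 1.47. At the other end were POLD4 (-0.63), the small subunit of polymerase delta, and RBBP4 (-0.10), a histone chaperone of several complexes. Among 14 genes of mitochondrial DNA replication, 0 were called with or without the block and the median was 0.32. With the block 6 of the 14 passed the adjusted threshold upward under 2-fold (20.0% of all genes tested passed upward at any fold) and 0 downward, with POLG, the mitochondrial polymerase, at -0.06, MGME1 at 0.01, SSBP1 at 0.53 and RNASEH1 at 0.65. Among 11 repair and translesion polymerases tested, 1 was called higher with the block, and the median was -0.11. At any fold and in either direction 5 of the 11 passed the blocked adjusted threshold, against 6222 of the 15529 genes tested. Besides the called gene, 1 passed upward and 3 downward under 2-fold. The called gene was POLQ, the polymerase of end joining, with 13.8 and 31.2 CPM against 47.0 and 66.8 CPM (1.35), whereas POLI was at -0.63, POLN at -0.51 and REV1 at 0.41. Differences between the lists were not tested.

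Some counts are less certain than others. In GENCODE 8 of the 54 genes, MCM2, GINS3, GINS4, TIPIN, POLA2, PRIM1, RFC5 and MCM8, share at least 10% of their exonic bases with another gene. For TIPIN, POLA2, PRIM1 and MCM8 all or most of the shared bases lie on the same strand, and for the other 4 on the opposite strand, where the strand setting of the counting, which was not given, would matter. PCNA and PRIM2 have pseudogene copies (PCNAP1 and PRIM2BP) that could take or lend reads.

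**Figure D4:**
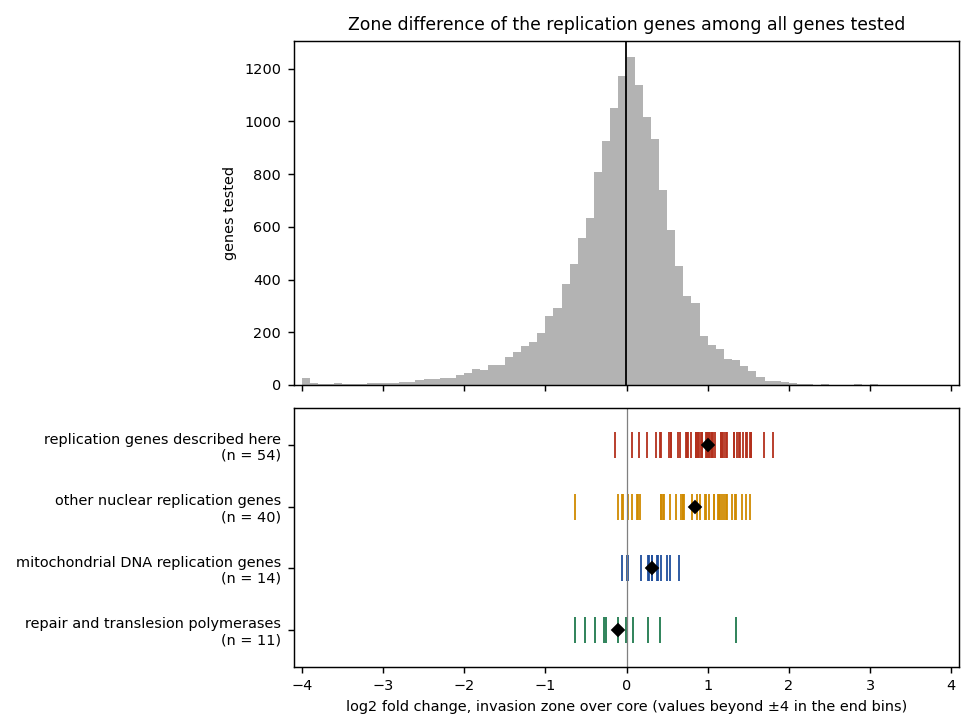
Top, histogram of the log2 fold change (invasion zone against core) for all 15529 genes tested, with the median as a line. Bottom, each gene of the 4 lists as a tick and the list median as a diamond, at 1.00 for the 54 replication genes, 0.84 for other nuclear replication genes, 0.32 for mitochondrial DNA replication genes and -0.11 for repair and translesion polymerases.

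The libraries held 36363358 and 14983135 counts in the core and 37591782 and 11789243 counts in the invasion zone, so that both replicate 2 libraries were shallower, and counts of mitochondrial genes made up between 1.06% and 1.72%. The melanocyte markers were absent or nearly so, with SOX10 and TYR at 0 in all 4 libraries and MITF at 1.71 to 3.37 CPM. Of the mesenchymal and neural crest list, VIM had 1700 to 2440 CPM and NGFR at most 0.0663 CPM. In the same list AXL had 633 and 629 CPM in the core and 1220 and 1120 CPM in the invasion zone. S100A4 had 74.8 and 41.5 CPM against 57.1 and 23.4 CPM. The log2 fold changes were 0.89 (AXL), -0.52 (S100A4), 0.14 (CD44), 0.12 (VIM) and 0.02 (SOX9). The leukocyte list summed to at most 1.84 CPM in any library with CD3E at 0. The endothelial list summed to 18.3 and 7.63 CPM in the core and 5.76 and 0.926 CPM in the invasion zone, nearly all of it PECAM1, with KDR at 0. The fibroblast list summed to 1200 and 850 CPM in the core and 480 and 232 CPM in the invasion zone, nearly all of it COL1A1. In that list PDGFRA had 95.2 and 58.2 CPM in the core and 38.2 and 13.6 CPM in the invasion zone. PDGFRB had 20.1 and 16.8 CPM against 6.14 and 1.68 CPM, and DCN and LUM were at 0. The epithelial list summed to 131 and 158 CPM in the core and 134 and 118 CPM in the invasion zone, nearly all of it KRT18. The part of these markers in the replication gene results was not tested.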

How the data were processed

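RNA from 2 core and 2 invasion zone samples was amplified with the SMARTer kit and sequenced. The authors deposited raw read counts, made by removing ribosomal reads with Bowtie, aligning to hg38 with STAR and counting unique alignments with HTSeq-count. The sources used here give no version, annotation release or strand. Library totals ranged from 11789243 to 37591782 counts.

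The genes and lists were chosen with earlier results of these data known. In R 4.3.3, the 15529 genes reaching 10 counts (scaled to the median library) in 2 or more libraries and a total of 15 were scaled by TMM and given as normalized CPM, and the zones were compared with edgeR 4.0.16 (quasi-likelihood test without a replicate term, Benjamini-Hochberg over all genes). Calls needed an adjusted p under 0.05 together with a 2-fold change. Standard errors are those implied by the F statistic. Alternatives used DESeq2 1.42.0 and limma 3.58.1. The procedure was tested on simulated data.

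The protocol takes a core and then the corresponding invasion zone, and libraries of one replicate number carry consecutive sequencing numbers, so that they were treated as pairs in the fits with the replicate block and in the ratios within replicates, although no source states it. The fold changes and standard errors printed without mention of the block come from the fit without it. Deviations of log2 CPM from the zone means correlated at 0.57 over genes between core replicate 1 and invasion zone replicate 1. Both replicate 2 libraries were also shallower. A shared spheroid therefore cannot be told apart from other things that libraries of one number share, such as depth. Libraries of one zone were not duplicates (chi-square per degree of freedom 38.1 and 35.5). Positions and transcript lengths came from GENCODE 44 on GRCh38, promoters from RefSeq. Values by library were given for the genes with the largest and smallest log2 fold change of each step, genes below 0 and a fixed set of central genes, with a few others shown after their values were seen. Figures were drawn with matplotlib 3.10.9.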

Additional observations from a re-analysis of the deposited data

How the results depend on the processing

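Of the 54 replication genes, 0 were called without a replicate term, and this count stayed at 0 with RLE scaling, with upper-quartile scaling, with a minimum of 10 counts per library, in limma voom, with no fold change minimum, thinning to the smallest library and the GC and length correction. It was 6 without a low-count filter, 26 with DESeq2, 26 at an unadjusted p and 28 with DESeq2 at an unadjusted p. With the replicate block, which pairs same-numbered libraries, it was 30, and 31 in limma voom with the block, 37 when the block was joined to the GC and length correction, and 31 in DESeq2 with the block, which was chosen after seeing the data and called the same 30 and MCM2. With each library left out it ranged from 1 to 38. No alternative called any of them lower. Over all genes the higher and lower calls, 0 and 0, became 81 and 191 without a filter, 588 and 1147 with the replicate block, 354 and 548 with DESeq2, 575 and 1088 in limma voom with the block, 495 and 995 at an unadjusted p, 444 and 840 with DESeq2 at an unadjusted p, 806 and 1013 when the block was joined to that correction, 427 and 731 in DESeq2 with the block, and 8 to 606 and 107 to 1076 with each library left out. The cause of these changes was not tested. The median of the 54 genes ranged from 0.69 to 1.45 with each library left out, the highest without core replicate 2. With each library left out, ORC3 ranged from -0.12 to 0.45 and RFC1 from -0.30 to 0.35, so that both changed sign. With 2 libraries per zone the precision was limited, and the largest standard errors were those of GINS4 (0.67), WDHD1 (0.50) and TICRR (0.45).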

Other observations

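Ratios between partner genes, per kilobase of the canonical transcript, are given for each library (core replicates 1 and 2, then invasion zone replicates 1 and 2) and were not tested. CDT1 to its inhibitor GMNN was 0.437 and 0.525 in the core and 0.375 and 0.413 in the invasion zone, a lower ratio in both invasion zone libraries although both genes were higher there. ORC1 to ORC2 was 0.364 and 0.467 against 0.852 and 0.874, and ORC6 to ORC2 was 1.54 and 2.49 against 4.01 and 4.71, so that neither ratio overlapped between the zones. CDC45 to MCM2 was 0.359 and 0.409 against 0.583 and 0.713. CDC6 to ORC1 stayed between 2.15 and 2.45 in all 4 libraries and its zones overlapped. DBF4 to its kinase CDC7 was 0.379 and 0.315 against 0.475 and 0.413, and POLE to POLD1 was 0.335 and 0.242 against 0.294 and 0.232, where the replicates differed by more than the zones.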
